A study of Mus musculus with 4 samples.

Results

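The transcripts of 10 type I interferon-stimulated genes, Isg15, Usp18, Irf7, Ifit1, Ifit2, Ifit3, Rsad2, Oasl2, Mx1 and Bst2, were followed in single cells of the malignant ascites of mice bearing ovarian tumor cells. The members were chosen by name, and all 10 were found among the 29835 genes of the list joined from the libraries. All mice were C57BL/6 and had received ID8-Trp53-/- cells, a mouse ovarian surface epithelial line that lacks the p53 tumor suppressor, by injection into the peritoneum. After 7 days of engraftment they were given BTYNB, a small-molecule inhibitor of the RNA-binding protein IGF2BP1, or its solvent DMSO, together with an antibody against the T cell checkpoint receptor PD-1 (clone RMP1-14) or a control IgG2a.

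The 4 groups were the control (DMSO & IgG), BTYNB (BTYNB & IgG), anti-PD-1 (DMSO & PD1 blocking antibody) and the combination (BTYNB & PD1 blocking antibody). The labels give 50 mg/kg of BTYNB and 100 ng of antibody per dose, but the published methods differ from the labels here, so the doses were not settled. Ascites was taken at about 3 mL, red cells were depleted, cells of several animals were pooled by treatment and frozen, and dead cells were removed before capture. Each group therefore is 1 pooled library, and none has a replicate. No difference between groups could be tested against the spread between animals, and no p-value is given. Levels are UMIs (counted RNA molecules) of a gene per 1000000 UMIs of the cells named, abbreviated CPM. Ranges in brackets are 95% intervals of the counts (exact Poisson for levels, exact binomial for shares) and cover counting error only. A gene was counted as different where CPM differed by more than 1.5-fold, and each count is read against the percentage of all measured genes past the same fold.

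Of 46342 cells, 45178 were kept. Cells were assigned by markers: tumor cells had at least 5 UMIs of Krt7, Krt8, Krt18, Krt19 and Wt1 and none of Ptprc, myeloid cells at least 3 UMIs of Lyz2 and Csf1r with at most 2 of the 4 keratins, T cells at least 2 of Cd3d, Cd3e and Cd3g, and B cells at least 3 of Cd79a and Cd79b. The control held 7078 tumor and 285 myeloid cells, BTYNB 3426 and 2945, anti-PD-1 10877 and 370, and the combination 4237 and 1176. T and B cells were numerous enough to measure only in BTYNB (2302 and 3141) and the combination (95 and 123). Summed tumor markers stood at 3609 to 4120 CPM in the tumor cells and 128 to 424 CPM in the myeloid cells. The BTYNB library stood apart from the others, because its smallest cell held 869 UMIs whereas the smallest cells of the others held 3533 to 5115. It thus contained small cells that the other libraries lacked. Pairs of libraries shared 0 to 4 cell barcodes.

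Type I interferons bind a receptor made of IFNAR1 and IFNAR2, whose kinases JAK1 and TYK2 activate the transcription complex ISGF3. This complex binds interferon-stimulated response elements (ISREs) in the promoters of target genes. The products restrict viruses, and in tumors the same program accompanies antigen presentation and the recruitment of lymphocytes. Interferon transcripts themselves were almost absent here. Of 20 listed type I and III interferon genes, 6 were in the files, and their summed count was 6 UMIs in the control, 7 in BTYNB, 0 with anti-PD-1 alone and 6 in the combination. Ifnb1, the interferon made by most cell types, had 2, 1, 0 and 1 UMIs in the same order.

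The promoters of the members were examined for the site that ISGF3 binds. RefSeq promoter windows (250 bases before to 50 after the start, GRCm38.p6) were given for 8 of the 10 genes, all but Usp18 and Mx1. The ISRE core, GAAA and GAAA with 2 bases of any kind between them, was searched on both strands with overlaps allowed, and it lay in 5 of the 8 against 3.44% of all 32851 windows. The longer form, the same core followed by CT, lay in 3 (Ifit1, Ifit3 and Bst2) against 0.271% of windows. Stretches holding matches are shown 5′ to 3′ on the gene's strand, with matching bases in capitals (TTTC in place of GAAA is the motif on the other strand). The promoter window of Ifit3 held 2 matches, of which 1 is shown. A match is a description of the sequence and no evidence of binding.
Isg15, chr4:156200871-156200900, minus strand: gtagGAAAAGGAAACCGAAACAGAAAatag
Ifit1, chr19:34640785-34640814, plus strand: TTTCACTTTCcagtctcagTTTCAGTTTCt
Ifit3, chr19:34583363-34583392, plus strand: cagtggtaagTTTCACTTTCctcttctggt
Rsad2, chr12:26456553-26456582, minus strand: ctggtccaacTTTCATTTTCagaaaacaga
Bst2, chr8:71537580-71537609, minus strand: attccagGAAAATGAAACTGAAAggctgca

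These stretches lie upstream of the start, 82 to 53 bases before it in Isg15, 104 to 75 in Ifit1, 166 to 137 in Ifit3, 130 to 101 in Rsad2 and 137 to 108 in Bst2. Isg15 held 3 overlapping matches and Bst2 a pair of overlapping ones. Ifit2, Oasl2 and Irf7 had no match in their windows, which says only that these letters are not there. The window of Ifit3b, a near copy of Ifit3, held the same 30 bases. Transcripts of the pair were alike as well: 51.2% of the 50-base stretches of Ifit3 also occur in Ifit3b, so reads could be split between them and Ifit3 values are uncertain. For each of the other members less than 8% of the stretches were shared with another gene, 7.13% for Ifit1 being the highest.

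Irf7, Usp18 and Isg15 regulate the response. IRF7 is a transcription factor that amplifies interferon production. Irf7 in tumor cells had a narrow range, 19.9 CPM (control), 17.9 (BTYNB), 22.3 (anti-PD-1) and 22.5 (combination). USP18 cleaves the modifier ISG15 from proteins and restrains the receptor. Usp18 was at 21.7, 15.6, 22.8 and 21.4 CPM in the same order, with BTYNB below the other libraries (log2 ratio to the control -0.47 [-0.60 to -0.35]). ISG15 is a ubiquitin-like protein attached to others during the response. Isg15 was at 15.1, 13.9, 13.3 and 18.9 CPM and was highest in the combination.

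The IFIT proteins bind foreign RNA. Ifit1 in tumor cells was at 8.46 CPM in the control, 7.70 in BTYNB, 5.44 with anti-PD-1 alone and 9.92 in the combination. Ifit2 followed the same order, at 6.97, 6.22, 5.13 and 9.51 CPM, so both were lowest in anti-PD-1 and highest in the combination. Ifit3 was at 3.31, 2.19, 3.73 and 4.58 CPM and was lowest in BTYNB.

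Single cells carried a visible part of these counts. In BTYNB, 1 tumor cell with 34900 UMIs held 74 of the 412 Ifit1 UMIs and 56 of the 253 Rsad2 UMIs, and without it the levels were 6.32 CPM for Ifit1 and 3.68 for Rsad2. In anti-PD-1, 1 tumor cell with 6808 UMIs held 38 of the 306 Ifit3 UMIs, and Ifit3 was at 3.26 CPM without it. These cells were singled out after their values were seen.

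The other effectors act on RNA, membranes or the virus particle. RSAD2 (viperin) makes a nucleotide that stops viral RNA synthesis, and Rsad2 was at 4.11, 4.73, 5.32 and 5.28 CPM in control, BTYNB, anti-PD-1 and combination tumor cells. Oasl2, a relative of the oligoadenylate synthetases, was at 201, 209, 166 and 206 CPM, with anti-PD-1 lowest. BST2 (tetherin) holds budding virus at the cell surface, and Bst2 was at 49.8, 36.7, 47.7 and 49.6 CPM, with BTYNB lowest. For each of these effectors the highest and the lowest library differed by less than 1.5-fold.

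Mx1 encodes a dynamin-like GTPase that blocks influenza virus and related viruses, and many laboratory mouse strains including C57BL/6 carry a defective allele. It was nearly absent from tumor cells of 3 libraries, at 0.295 CPM [0.185 to 0.446] in the control (22 UMIs), 0.262 [0.143 to 0.439] in BTYNB (14 UMIs) and 0.426 [0.27 to 0.64] in the combination (23 UMIs). In anti-PD-1 it was at 4.74 CPM [4.28 to 5.23], from 389 UMIs. The anti-PD-1 interval did not overlap those of the other libraries.

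**Figure D1:**
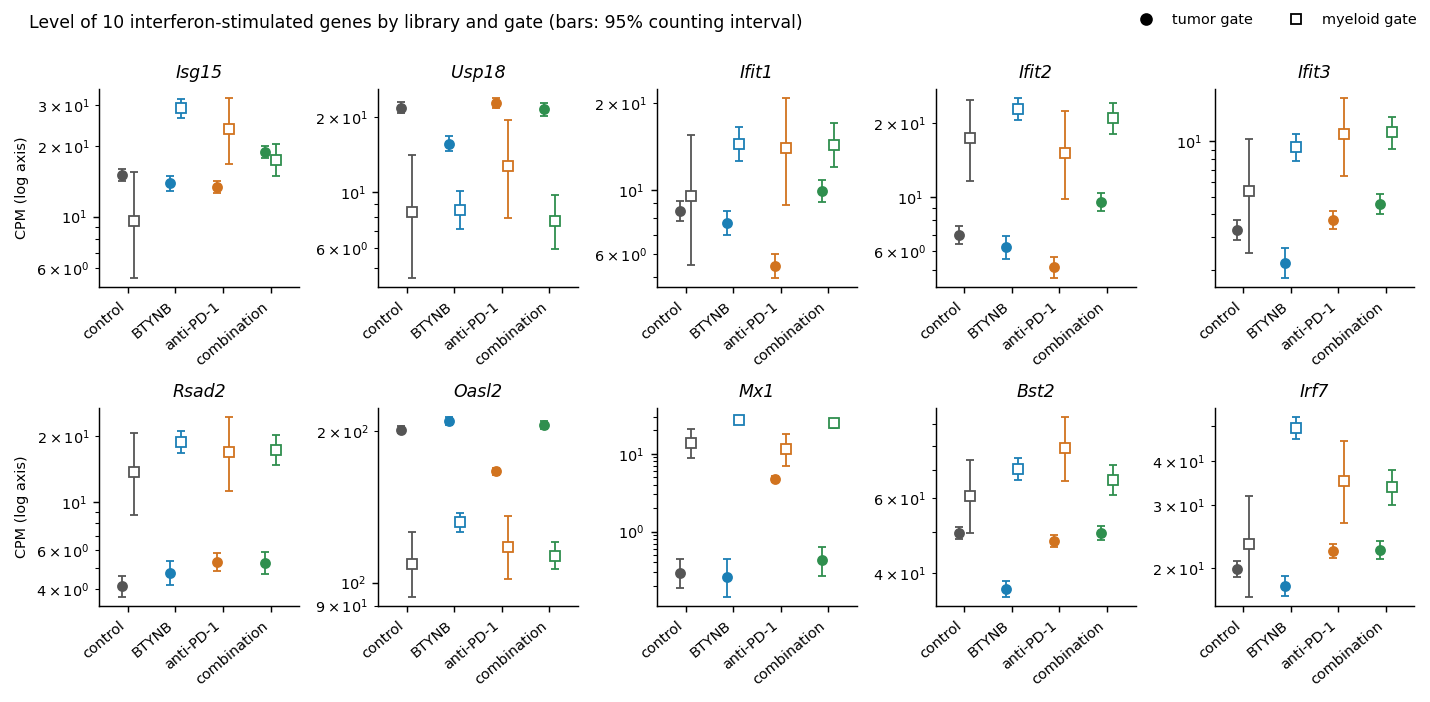
Level of each gene in CPM (log axis) in tumor cells (filled circles) and myeloid cells (open squares) of the 4 libraries, with bars for the 95% counting interval. Mx1 in tumor cells stands at 4.74 CPM in anti-PD-1 and below 0.5 CPM in the other libraries, whereas Oasl2 stays between 166 and 209 CPM.

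The share of tumor cells with at least 1 UMI of a gene depends on depth, and the median tumor cell held 9785.5 UMIs in the control, 14853 in BTYNB, 7160 with anti-PD-1 alone and 11473 in the combination. At full depth Mx1 was seen in 3.13% of anti-PD-1 tumor cells and in 0.311%, 0.350% and 0.519% of those in the control, BTYNB and the combination. With each cell thinned to 1000 UMIs the shares were 0.506% [0.381 to 0.658] in anti-PD-1, 0 of 7078 cells in the control (upper bound 0.0521%), 0.0881% in BTYNB and 0.0472% in the combination. Thinning removed 19 BTYNB cells that were too shallow. Oasl2 was seen in 17.4%, 18.0%, 15.0% and 18.4% of thinned tumor cells in the control, BTYNB, anti-PD-1 and the combination (75.5%, 75.8%, 56.3% and 81.5% at full depth). No measured cell type is known to lack these genes. In BTYNB T cells, the gated set with the lowest thinned share of Oasl2, it was 3.21% at a median depth of 2055.5 UMIs.

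The effect of BTYNB was asked first against the control. In tumor cells the 10 genes had a median log2 ratio of -0.16, beside 0.02 over all measured genes. None was past 1.5-fold higher and 1 was past 1.5-fold lower, where 8.35% and 5.22% of all genes were. The lower gene was Ifit3 (-0.60 [-0.93 to -0.28]), and Bst2 was lower by less than 1.5-fold (-0.44 [-0.52 to -0.36]). The intervals of Isg15 (-0.13), Ifit1 (-0.14), Ifit2 (-0.16) and Rsad2 (0.20) included no difference, and with the tumor cell holding most UMIs of the 9 members other than Oasl2 left out of each library the ratios were -0.06 for Rsad2 and -0.39 for Ifit1.

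Anti-PD-1 against the control, a comparison that shares the control library, gave a median of 0.00 (-0.06 over all genes) in tumor cells. Past 1.5-fold were 1 gene higher, Mx1, and 1 lower, Ifit1, against 9.26% and 6.39% of all genes. The log2 ratio was 4.01 [3.39 to 4.70] for Mx1, a 16.1-fold difference, and -0.64 [-0.81 to -0.46] for Ifit1. Ifit2 was lower by less than 1.5-fold (-0.44 [-0.63 to -0.25]), and Rsad2 higher (0.37 [0.16 to 0.59]). Oasl2 and Isg15 were lower, at -0.27 and -0.18, and these ratios were 0.09 and 0.08 once the Cd24a-high cells described below were left out. Without those cells Ifit1 was -0.35 and no longer past 1.5-fold, Ifit2 was -0.01 and Mx1 was 1.75.

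Adding BTYNB to anti-PD-1 was read from the combination against anti-PD-1, where the median was 0.18 (0.08 over all genes). Ifit1 and Ifit2 were past 1.5-fold higher (0.87 [0.68 to 1.05] and 0.89 [0.70 to 1.08]) and Mx1 was past it lower (-3.47 [-4.15 to -2.87]), against 10.1% of genes higher and 6.98% lower. Without the Cd24a-high cells Ifit2 was 0.51 and no longer past 1.5-fold, Ifit1 was 0.64 and Mx1 was -0.98. Isg15 was 0.50 higher on the log2 scale. Irf7, Rsad2, Bst2 and Usp18 lay between -0.09 and 0.06.

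Adding anti-PD-1 to BTYNB was read from the combination against BTYNB, and here most members were higher. The median log2 ratio was 0.44 [0.33 to 0.55] beside -0.01 over all genes, 9 of 10 ratios were above 0, and 7 had an interval above 0. The share of all genes with a ratio or an interval above 0 was not computed, so these counts have no background. Past 1.5-fold higher were 3 genes, Ifit3 (1.07 [0.74 to 1.40]), Mx1 (0.70, from 14 and 23 UMIs) and Ifit2 (0.61 [0.41 to 0.82]), against 3.52% of all genes, and none was past it lower (1.49% of genes). Isg15, Usp18 and Bst2 followed at 0.45, 0.45 and 0.44, then Ifit1 at 0.37 and Irf7 at 0.33. Oasl2 did not follow (-0.02). With the same single cells left out of each library, Ifit1 was 0.60 and Rsad2 0.50 in place of 0.16, and 4 genes were past 1.5-fold. Myeloid markers summed to 39.2, 49.9, 88.4 and 108 CPM in tumor cells of the control, BTYNB, anti-PD-1 and the combination, and so moved in the same direction. Their part in the result was not tested.

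**Figure D2:**
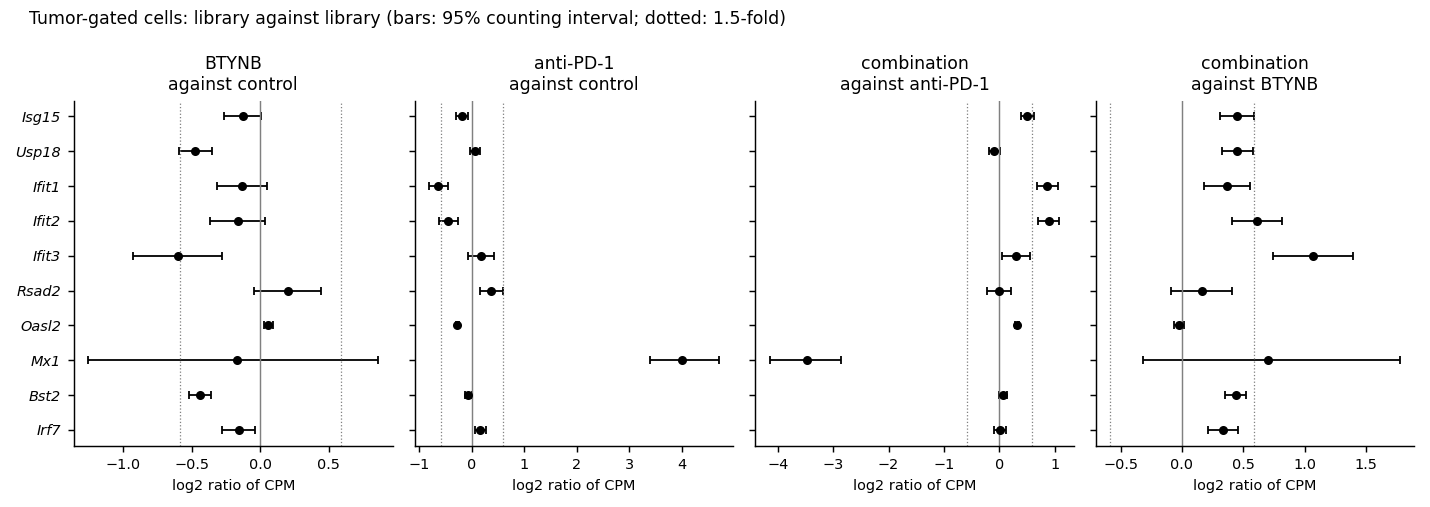
log2 ratio of CPM in tumor cells for each gene (rows) in 4 library comparisons (panels), with bars for the 95% counting interval and dotted lines at 1.5-fold. The points of the combination against BTYNB lie to the right of 0 except Oasl2 at -0.02, and Mx1 lies at 4.01 in anti-PD-1 against the control and at -3.47 in the combination against anti-PD-1.

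The Mx1 signal of anti-PD-1 lay in a subset of tumor cells. Cells with at least 5 UMIs of Cd24a (a cell surface protein), Gkn2 (a gastric mucosal gene) and Krtdap (a keratinocyte gene) were taken as Cd24a-high, a split that uses none of the 10 genes. It held 484 tumor cells in the control (6.84%), 382 in BTYNB (11.2%), 2761 with anti-PD-1 alone (25.4%) and 602 in the combination (14.2%). Anti-PD-1 tumor cells with Mx1 numbered 340, and 285 of them (83.8%) were Cd24a-high, against 2 of 22, 1 of 12 and 1 of 22 in the control, BTYNB and the combination. Most of the 340 cells held 1 UMI of Mx1 (295 cells), 41 held a pair and 4 held 3 or more.

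Within anti-PD-1, Mx1 was higher in Cd24a-high cells and 7 other members were lower. Mx1 was at 13.0 CPM in Cd24a-high and 0.992 CPM in Cd24a-low tumor cells, a log2 ratio of 3.71 [3.30 to 4.15]. The 7 were past 1.5-fold lower, no member but Mx1 was past it higher, and the median of the 10 was -1.16 (-0.18 over all genes). Past the fold in that contrast were 11.2% of all genes higher and 26.3% lower. The largest differences were in Ifit2 (-2.91), Oasl2 (-2.03, 53.1 against 217 CPM) and Ifit1 (-1.98), followed by Isg15 (-1.34), Irf7 (-1.20), Ifit3 (-1.12) and Rsad2 (-0.87). The anti-PD-1 cell with 6808 UMIs named above was Cd24a-high. It held 38 of the 53 Ifit3 UMIs of that set and 24 UMIs of Ifit1. Ratios without it were not computed, so the values of Ifit3 and Ifit1 and their place in this order depend on 1 cell. Bst2 was lower by less than 1.5-fold (-0.48), and Usp18 was at -0.04. The cells compared come from the same library, so the contrast has no replicate.

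A finer division gave a graded picture. Among anti-PD-1 tumor cells with 0, 1 to 4, 5 to 19 and 20 or more UMIs of Cd24a, Gkn2 and Krtdap (4707, 3409, 1648 and 1113 cells), Mx1 was at 0.554, 1.51, 10.3 and 16.5 CPM. Oasl2 went the other way, at 235, 196, 73.8 and 26.1 CPM. Ifit2 was at 7.40, 6.59, 1.38 and 0.361 CPM, and Irf7 at 28.0, 26.0, 14.2 and 8.75. These members declined at each step. Usp18 was level across the bins, at 22.82, 23.18, 22.97 and 21.47 CPM. The median cell had 6088, 7240, 8552.5 and 9804 UMIs in these bins, so depth moved with them, and its part was not tested.

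**Figure D3:**
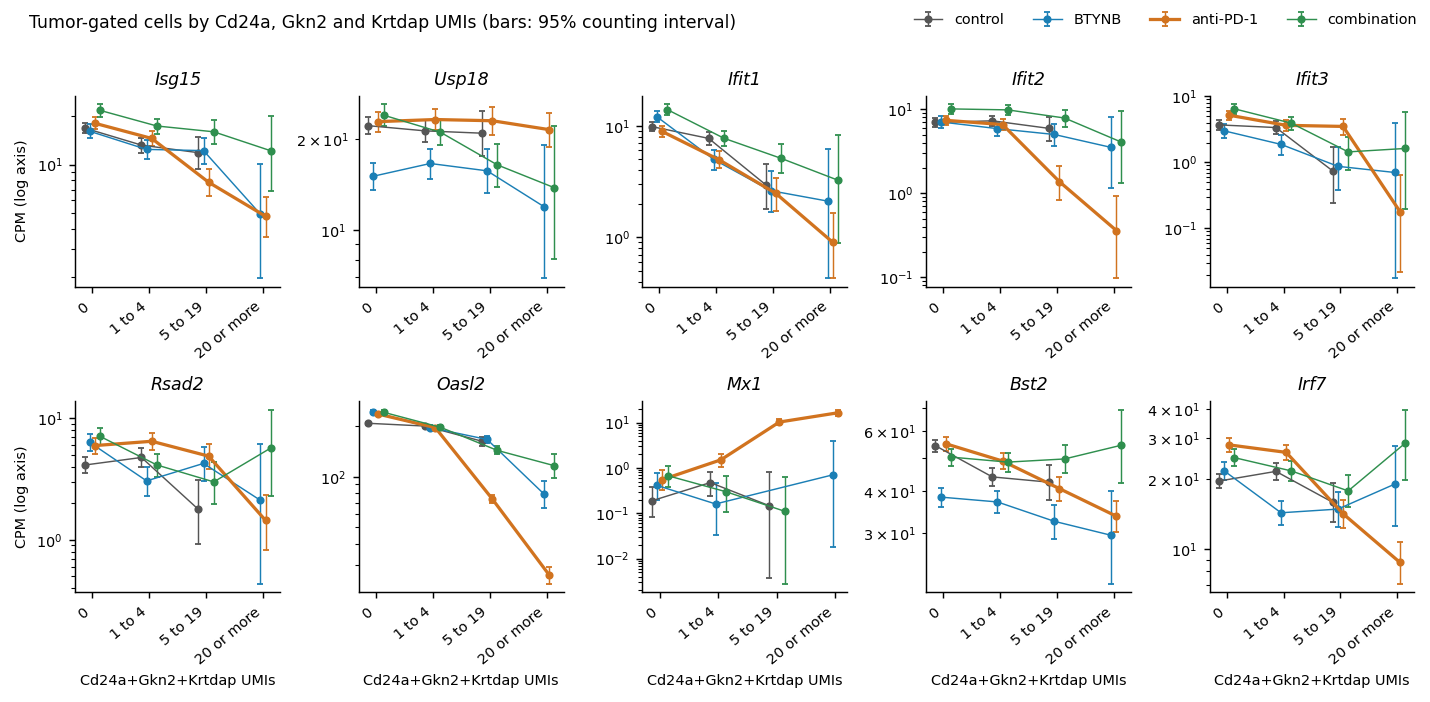
CPM (log axis) of each gene in tumor cells binned by their summed UMIs of Cd24a, Gkn2 and Krtdap, one line per library, with bars for the 95% counting interval and bins at 0 UMIs of the gene left out. In anti-PD-1 (thick line) Mx1 climbs from 0.554 to 16.5 CPM while Oasl2 drops from 235 to 26.1 CPM and Usp18 stays between 21.5 and 23.2 CPM.

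Among Cd24a-high cells of anti-PD-1, those that held Mx1 were lower in Oasl2, Irf7, Ifit3 and Rsad2, with intervals that did not overlap. The share of all genes with such a difference was not computed, and 1 cell carried much of the Ifit3 value. Oasl2 was at 28.5 CPM [22.7 to 35.5] in the 285 cells with an Mx1 UMI and at 56.2 CPM [53.2 to 59.4] in the 2476 without, Irf7 at 5.28 and 12.6 CPM, and Rsad2 at 0.704 and 3.73 CPM. Ifit3 had 0 UMIs in the cells with Mx1, where 3 UMIs would be 1.06 CPM, and was at 2.33 CPM in those without. The cell with 6808 UMIs named above was among those without Mx1. It held 38 of their 53 Ifit3, 24 of their 45 Ifit1 and 12 of their 85 Rsad2 UMIs. Levels without it were not computed, so the Ifit3 difference rests largely on 1 cell. The intervals of the other members overlapped. Usp18 was at 23.6 and 22.2 CPM, Bst2 at 32.8 and 38.2 and Isg15 at 4.23 and 6.76, while Ifit1 had 1 UMI and Ifit2 none in the cells with Mx1, against 1.97 and 1.05 CPM. Depth was similar, with medians of 9640 and 9040 UMIs. These genes also moved with the summed UMIs of Cd24a, Gkn2 and Krtdap. From 5 to 19 to 20 or more of them, Mx1 went from 10.3 to 16.5 CPM and Oasl2 from 73.8 to 26.1. Irf7 went from 14.2 to 8.75 CPM, Ifit3 from 3.51 to 0.18 and Rsad2 from 4.88 to 1.44. The cell with 6808 UMIs held 38 of the 51 Ifit3 UMIs in the bin of 5 to 19. Cells with and without Mx1 were not matched for that sum, and its part was not tested. The myeloid markers summed to 78.4 CPM in anti-PD-1 Cd24a-high cells, 92.9 CPM in Cd24a-low ones and 19722 CPM in anti-PD-1 myeloid cells. They were not summed for the cells with Mx1 alone, and their part was not tested.

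In the other libraries Cd24a-high cells were lower in several members, with no excess of Mx1. Past 1.5-fold lower were 3 members in the control, 3 in BTYNB and 5 in the combination, and none was past it higher. The medians of the 10 log2 ratios were -0.34 in the control (background 3.1% higher and 7.71% lower), -0.41 in BTYNB (3.2% and 7.52%) and -0.57 in the combination (4.04% and 13.8%). Ifit1 was at -1.66, -1.81 and -1.18 and Ifit3 at -2.32, -1.57 and -1.86, while Oasl2 was at -0.35, -0.52 and -0.66. Mx1 was at -0.05, -1.68 and -2.37, on 22, 14 and 23 UMIs. A lower level of Ifit1 and Ifit3 in Cd24a-high cells thus appeared in all 4 libraries, and an Mx1 excess in anti-PD-1. Cd24a-high cells were deeper than Cd24a-low ones. Median UMIs were 13996.5 against 9515.5 (control), 26558 against 13391 (BTYNB), 9116 against 6546 (anti-PD-1) and 15779 against 10860 (combination). Cells with 20 or more UMIs of Cd24a, Gkn2 and Krtdap numbered 1113 in anti-PD-1, 40 in BTYNB and 53 in the combination. The part of depth and of this score was not tested. The difference between libraries was not tested.

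Upstream and neighboring genes in anti-PD-1 Cd24a-high cells were mostly lower too. Of the receptor, kinase and ISGF3 genes, Stat2 was at -1.28, the receptor chain Ifnar2 at -1.17, the kinase Jak1 at -0.87 and Irf9 at -0.82. Of 26 other type I interferon-stimulated genes, 19 were lower and 3 higher, where 26.3% of all genes were lower and 11.2% higher, so the count of higher genes was near the background. The 3 were Epsti1 (0.96), Mx2 (0.92, 2.61 against 1.38 CPM), the neighbor and closest relative of Mx1, and Oasl1 (0.80), and they were named after their values were seen. Of 17 interferon-gamma-associated genes 15 were lower, among them Gbp2 (-1.80) and the antigen-processing genes Psmb8 (-0.89) and Tap1 (-0.63). Cgas, the cytosolic DNA sensor, was higher (0.93) where 5 of 12 sensors and adaptors were lower. The background for these lists is the same 26.3% lower and 11.2% higher.

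The same lists between libraries showed smaller differences in whole tumor cells. Of 27 other type I interferon-stimulated genes, 3 were past 1.5-fold higher and none lower in the combination against BTYNB (median 0.30), where 3.52% and 1.49% of all genes were. In anti-PD-1 against the control 1 was higher and 7 lower (median -0.35), where 9.26% and 6.39% of all genes were. In Cd24a-low cells alone the latter comparison gave none higher and 1 lower, with a median of -0.19 (-0.02 over all genes). Among the most abundant, Ifitm3, which blocks viral entry, was at 154, 134, 167 and 177 CPM in the control, BTYNB, anti-PD-1 and the combination. Xaf1, a pro-apoptotic gene, was at 98.6, 79.1, 87.0 and 105 CPM, and Lgals3bp, a secreted glycoprotein gene, at 91.6, 66.6, 79.3 and 82.0 CPM. Both were lowest in BTYNB.

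Of 17 interferon-gamma-associated genes, 6 were past 1.5-fold higher in tumor cells of anti-PD-1 against the control (median 0.55), where 9.26% of all genes were, and none was lower (6.39%). In the combination against BTYNB 4 were higher (median 0.50), where 3.52% of all genes were, and none was lower (1.49%). Gbp2, a GTPase, was at 158, 192, 291 and 248 CPM and Tap1, a peptide transporter, at 125, 142, 186 and 201 CPM. Psmb8, an immunoproteasome subunit, was at 246, 240, 291 and 297 CPM, and for these 3 genes both anti-PD-1 libraries were above both others. In Cd24a-low cells alone, 12 of the 17 genes were past 1.5-fold higher in anti-PD-1 against the control, with a median of 0.75 (-0.02 over all genes). Whether the lists differ was not tested. The sensor Zbp1 was at 60.4, 63.8, 78.1 and 95.6 CPM.

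Other upstream and restraining genes were measured in the same tumor cells. The kinase Jak1 was at 96.998, 91.3, 70.2 and 80.5 CPM in the control, BTYNB, anti-PD-1 and the combination, and Irf9 at 43.9, 42.7, 39.7 and 48.8. Ddx58, which encodes the RNA sensor RIG-I, was at 59.8, 47.3, 43.1 and 56.1 CPM and its adaptor Mavs at 51.7, 41.4, 44.9 and 36.5. Of 8 negative regulators 1 was past 1.5-fold higher in BTYNB against the control (8.35% of all genes) and none lower (5.22%), and that was Socs3, an inhibitor of cytokine receptor signaling, at 111, 180, 111 and 157 CPM. Both BTYNB libraries were above both others in Socs3. Trim24, a transcriptional cofactor, was at 85.8, 87.0, 79.4 and 80.2 CPM, and Ube2l6, the conjugating enzyme for ISG15, at 75.9, 68.4, 80.3 and 86.9. The interferon genes Ifne, Ifnk and Ifnb1 were at most 0.056 CPM in tumor cells of each library, and no listed interferon gene had a UMI in myeloid cells.

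Myeloid cells held a different balance of the members. Mx1 was at 13.7 CPM in the control, 27.1 in BTYNB, 11.5 with anti-PD-1 alone and 24.7 in the combination, which is 5.54, 6.70, 1.28 and 5.86 above the tumor cells of the same library on the log2 scale. Rsad2 was also higher in myeloid than in tumor cells, by 1.74, 2.001, 1.67 and 1.72, and so was Ifit2, by 1.31, 1.88, 1.56 and 1.14. Usp18 and Oasl2 were lower in myeloid cells of every library, at -1.38, -0.87, -0.84 and -1.48 for Usp18 and -0.88, -0.67, -0.50 and -0.86 for Oasl2. Past 1.5-fold higher were 4, 8, 8 and 5 members, where the background was 25%, 26.4%, 23.3% and 24.5% of genes. Past it lower were 3, 2, 1 and 2, where the background was 34.3%, 42.1%, 33.8% and 39.6%.

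BTYNB myeloid cells were higher than control ones in Isg15, Irf7 and Mx1. Isg15 was at 9.56 CPM in the control, 29.1 in BTYNB, 23.7 with anti-PD-1 alone and 17.5 in the combination, and Irf7 at 23.3, 49.5, 35.2 and 33.8. The control was lowest in both. The log2 ratio of BTYNB to the control was 1.61 [0.89 to 2.43] for Isg15, 1.09 [0.62 to 1.59] for Irf7 and 0.98 [0.38 to 1.66] for Mx1. All 10 ratios were above 0, with a median of 0.53 (-0.04 over all genes), and 5 were past 1.5-fold against 10.2% of genes higher and 15.4% lower. The intervals of 4 genes, the 3 above and Oasl2 (0.27 [0.06 to 0.50]), were above 0. The share of all genes with a ratio or an interval above 0 was not computed. The 285 control cells gave 9 to 182 UMIs per gene.

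Small cells and neutrophil transcripts touch that comparison. With only cells of at least 5115 UMIs, the smallest cell of the combination, 2 genes were past 1.5-fold, with Isg15 at 1.04, Mx1 at 1.15 and Irf7 at 0.57. Neutrophil markers summed to 421, 1958, 52.2 and 37.0 CPM in myeloid cells of the control, BTYNB, anti-PD-1 and the combination. Without myeloid cells holding at least 5 UMIs of them the ratios were 1.59, 0.99 and 1.08 for Isg15, Mx1 and Irf7. That left 2843 of the 2945 BTYNB myeloid cells. Neutrophil markers were not summed in the cells left, and their part was not tested.

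Anti-PD-1 myeloid cells had a median of 0.46 against the control, with 4 genes past 1.5-fold higher (6.23% of genes) and none lower (7.96%). Isg15 was 1.31 [0.43 to 2.25] higher. In the combination against anti-PD-1 the median was -0.01, with Mx1 at 1.10 [0.43 to 1.86] and Usp18 at -0.73, the 2 genes past 1.5-fold, against 8.27% of genes higher and 10.6% lower. In the combination against BTYNB it was -0.13, and 1 member, Isg15, was past 1.5-fold lower (-0.73 [-1.01 to -0.47]) against 5.92% of genes lower and 10.6% higher. Irf7 was -0.55 [-0.75 to -0.36]. With cells of at least 5115 UMIs these values were -0.28 for Isg15 and -0.03 for Irf7.

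Among the genes upstream of the members, Stat2 in myeloid cells was at 75.9 CPM in the control, 137 in BTYNB, 63.7 with anti-PD-1 alone and 117 in the combination, so both BTYNB libraries were above both others. Jak1 was at 179, 178, 164 and 164 CPM, and Ifitm3 at 1409, 1866, 1778 and 1605. Ifi27l2a, another interferon-stimulated gene, was at 443, 497, 295 and 451 CPM and Lgals3bp at 356, 241, 393 and 329, with no order common to these genes. The sensors and adaptors Zbp1 (113, 162, 138 and 140 CPM), Sting1 (70.5, 111, 89.1 and 77.0) and Myd88 (63.9, 105, 78.8 and 88.0) were each lowest in the control and highest in BTYNB. So was Ptpn6, a phosphatase that restrains signaling, at 172, 261, 216 and 215 CPM. Socs3 was at 98.6, 141, 203 and 148 CPM and Ube2l6 at 59.2, 55.8, 60.6 and 56.5.

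Of 16 interferon-gamma-associated genes, 5 were past 1.5-fold higher in anti-PD-1 myeloid cells against the control (median 0.42), where 6.23% of all genes were, and none was lower (7.96%). In the combination against anti-PD-1 6 were lower (median -0.36), where 10.6% of all genes were, and none was higher (8.27%). Gbp7, a GTPase gene, was at 324, 229, 391 and 228 CPM, lower in both BTYNB libraries than in both others. Psmb8 was at 380, 488, 421 and 465 CPM and Tap1 at 194, 305, 245 and 314, both lowest in the control.

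T and B cells were compared between the combination and BTYNB only. In T cells Oasl2 was at 52.3 CPM in BTYNB and 117 in the combination (1.16 [0.82 to 1.497]). Rsad2 was at 5.63 CPM in BTYNB and had 0 UMIs in the 95 combination cells. Set to 3 UMIs, a chosen floor and no bound, that is 1.51-fold lower. Ifit1 was at 13.1 CPM in BTYNB and 1.25 in the combination, from 84 and 1 UMIs. The median of the 10 was 0.13, with 3 genes past 1.5-fold higher (22.4% of genes) and 3 lower (19.5%). In B cells Oasl2 was at 67.5 and 128 CPM, Bst2 at 21.4 and 43.2, and Irf7 at 13.9 and 25.3. The median was 0.89, with 6 genes higher (20.9%) and 2 lower (23.9%).

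These lymphocyte values rest on few UMIs and on cells of unlike size. In T cells 2 members and in B cells 3 passed the minimum of 20 UMIs. The median T cell held 2055.5 UMIs in BTYNB and 7407 in the combination, and the median B cell 1867 and 6471. Summed tumor markers were 784 and 1982 CPM in T cells and 1013 and 1917 CPM in B cells, so they were higher in the combination as well. With cells of at least 5115 UMIs Oasl2 in B cells was -0.03 and the median of the 10 was 0.02. Within BTYNB all members were lower in T than in myeloid cells (median -1.31), 7 of them past 1.5-fold against 19.6% of genes lower and 36.9% higher.

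**Figure D4:**
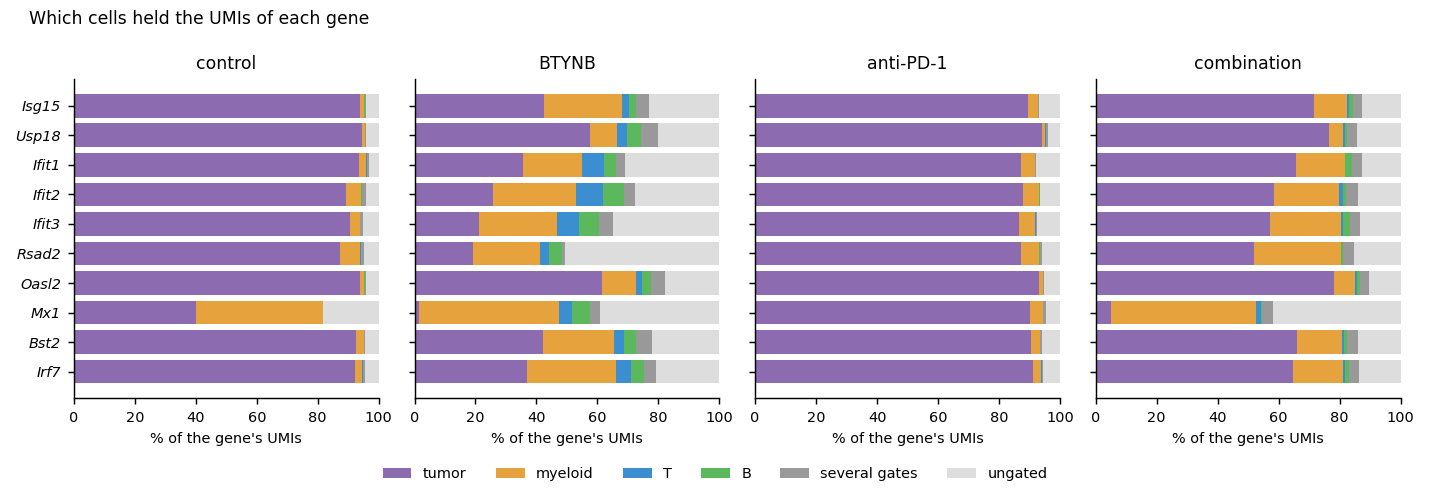
Percentage of each gene's UMIs (x axis) found in tumor, myeloid, T and B cells, cells that met several marker rules and cells that met none, in the 4 libraries. For Mx1 the tumor cells hold 90.0% in anti-PD-1, 40% in the control, 4.94% in the combination and 1.54% in BTYNB.

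Of the BTYNB cells 6030 met none of the marker rules, and they were divided after the data were seen by other marker lists. Cells with at least 5 UMIs of S100a8, S100a9, Retnlg, Ly6g and Csf3r, neutrophil genes, numbered 612, those with at least 3 of Siglech, Ccr9, Klk1 and Cox6a2, genes of plasmacytoid dendritic cells, 97, and those with at least 2 of the natural killer (NK) cell genes Ncr1, Klrb1c and Klre1, 641. The remaining 4667 served as the comparison. The neutrophil markers summed to 25663 CPM in the first set, and the other libraries held only 3 to 8 such cells each. The smallest cells of those libraries held 3533 to 5115 UMIs, whereas the median cell of this set held 1333. The number of such cells therefore cannot be compared between libraries.

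The neutrophil-marker cells were high in most members and nearly lacked Mx1. Rsad2 was at 346 CPM [313 to 381] in them and 13.8 CPM in the remaining cells, a 24.98-fold difference (log2 4.64 [4.41 to 4.87]). Ifit1 was at 128 and 10.7 CPM, Ifit3 at 55.0 and 6.43, and Oasl2 at 670 and 125. Isg15 was at 61.0 and 17.1 CPM, Irf7 at 71.4 and 20.9, Ifit2 at 63.6 and 13.2, and Usp18 at 37.0 and 12.2. All of these were past 1.5-fold higher, 8 members where 20.7% of genes were. Mx1 went the other way, with 2 UMIs (1.72 CPM) against 17.9 CPM (-3.38 [-6.43 to -1.51]), the single member lower where 31.5% of genes were, and Bst2 was at 32.7 and 39.3 CPM.

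The same cells stood above the myeloid cells of their library, with Rsad2 at 4.19 and Ifit1 at 3.15 on the log2 scale and a median of 1.79. In that contrast 7 members were higher and 2 lower, against 28.7% and 22.3% of genes. They were 3.35% of BTYNB cells with 1.04% of its UMIs, and held 402 of the 1317 Rsad2 UMIs (30.5%), 12.9% of the Ifit1, 11.6% of the Ifit3 and 0.22% of the Mx1 UMIs. Their median depth was 1333 UMIs, and their tumor markers summed to 946 CPM.

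Cells of this set were unlike one another. Of the 612 cells, 300 (49.0%) had no UMI of the 9 members other than Oasl2, and the 61 with most held 508 of the 926 UMIs (54.9%), with 22 in the highest cell. With cells thinned to 1000 UMIs the variance of the summed 10 genes was 3.61 times the mean, and 10.9% of cells had 5 or more UMIs. Tumor cells had a ratio of 1.16 to 1.36, and the remaining BTYNB cells 1.72. The means were unlike, at 1.85 UMIs in this set, 0.310 to 0.353 in tumor cells and 0.272 in the remaining cells. These ratios therefore do not compare the spread at an equal level. Rsad2 was seen in 20.3% of the thinned cells and Mx1 in 0 of 562 (upper bound 0.654%), and at full depth in 25.8% and 0.327%. In thinned B cells of the same library Rsad2 was seen in 0.418%.

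Bst2, also a surface marker of plasmacytoid dendritic cells, was at 481 CPM in the plasmacytoid-marker cells and 39.3 CPM in the remaining ones (3.61 [3.38 to 3.84]). Irf7, which such cells hold at rest, was at 54.0 and 20.9 CPM (1.37 [0.68 to 1.99]). Past 1.5-fold higher were 25.8% of genes and lower 17.8%. The other members rested on 1 to 32 UMIs and their median with these was -0.70. In NK-marker cells all 10 genes were below the remaining cells, with a median of -1.40 and 8 past 1.5-fold, where 14.7% of genes were higher and 22.5% lower.

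**Figure D5:**
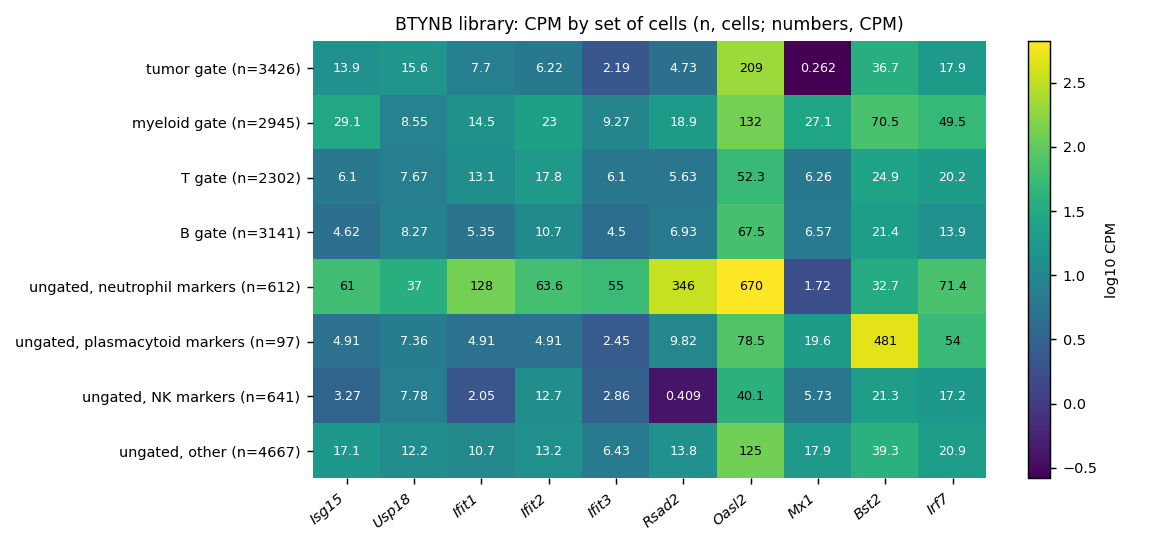
CPM of each gene (columns) in 8 sets of BTYNB cells (rows, with the number of cells), colored by log10 CPM and printed in each field. The neutrophil-marker row is high for Rsad2 (346), Ifit1 (128) and Oasl2 (670) and low for Mx1 (1.72), and the plasmacytoid-marker row is high for Bst2 (481).

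The members did not share a single profile. Over the 12 combinations of cell type and library with at least 50 cells, the log2 level of Irf7 had the highest correlation with the mean of the other 9 (Pearson r = 0.932), then Bst2 (0.815), Ifit3 (0.723) and Rsad2 (0.693). Mx1 was at 0.320, Oasl2 at -0.095 and Usp18 at -0.381. Among 7074 other genes with at least 20 CPM, the 5 most like the mean of the 10 were Tmem219 (0.962), Zbp1 (0.954), Wdr13 (0.936), Psmb10 (0.934) and Srd5a3 (0.934). The 12 points come from 4 libraries and share their depth and cell types, so these values are descriptions.

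In single cells thinned to 3000 UMIs, a UMI of Ifit1, Ifit2, Ifit3 or Rsad2 was held by a larger share of tumor cells with Irf7 than without it, 10.8% against 5.23% of cells in the control, 8.16% against 5.26% in BTYNB, 8.81% against 4.91% in anti-PD-1 and 13.8% against 7.67% in the combination. The BTYNB interval for cells with Irf7 (4.29% to 13.8%) held the value of the others. Tumor cells with Oasl2 also had the larger share, 7.88% against 3.88%, 6.95% against 4.26%, 8.09% against 3.54% and 10.2% against 6.41% in the same order. The intervals for Oasl2 did not overlap in any library. For Bst2 they overlapped in each library, and for Isg15 and Usp18 in some. Anti-PD-1 tumor cells with Mx1 did so in 3.2% [0.879 to 7.99] against 5.19% of cells, a value inside the interval. In combination myeloid cells the share was 32.2% with Irf7 and 11.2% without.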

How the data were processed

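Ascites cells of the 4 groups were captured with BD Rhapsody, and the authors deposited raw UMI counts per gene and cell, made with the BD Rhapsody Sequence Analysis Pipeline on GRCm39 according to the submitters' processing notes and the methods. Settings of the pipeline were not given in the sources used here. Totals were 80499877, 114600397, 89236522 and 78603888 UMIs (control, BTYNB, anti-PD-1, combination). Cells with under 200 genes or over 33% mitochondrial UMIs were removed. Cells meeting more than 1 marker rule (39, 439, 54 and 219) were left out as possible doublets, and no doublet caller was run. UMIs were summed by library and cell type, and ratios carry conditional exact binomial intervals. Background percentages cover genes with the equivalent of 20 UMIs in the smaller sum, and no set under 50 cells was compared. Medians take all 10 members. All members were named, and of each pathway list the 3 genes with the highest mean CPM in tumor and in myeloid cells, beside examples named after their values were seen. Members and lists were chosen with earlier results of these data known. A listed gene of the receptor and ISGF3 group, and counts over that group, are not reported here. RefSeq promoters and GENCODE vM21 transcripts were used for sequences only. Tools were Python 3.11.15, numpy 2.4.6, scipy 1.17.1, pandas 2.3.3 and matplotlib 3.10.9, and the scripts were tested on simulated data. Alternatives were a common UMI floor, means over cells, median-of-ratios scaling, stricter marker rules, removal of the 5% deepest cells, no mitochondrial limit, removal of Cd24a-high cells, a 2-fold limit, no low-count filter and other thinning. Removal of single cells and of neutrophil-marker cells was added after the data were seen.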

Additional observations from a re-analysis of the deposited data

Results flagged for a closer look

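For 5 values the sign of the antibody or inhibitor effect depended on the other agent, with each effect's counting interval away from 0. They were picked from the members in tumor and myeloid cells, and the share of all genes that did so was not computed. With 1 library per group the difference itself was not tested. In tumor cells the anti-PD-1 effect with BTYNB minus that without was 1.05 on the log2 scale for Ifit2 (0.61 and -0.44), 1.001 for Ifit1 (0.37 and -0.64) and 0.63 for Isg15 (0.45 and -0.18). The BTYNB effect on Ifit3 in tumor cells with anti-PD-1 minus that without was 0.90 (0.30 and -0.60). Without the Cd24a-high tumor cells, Ifit1 alone of these 4 tumor values kept both intervals away from 0 on opposite sides (0.31 and -0.35). Without those cells the pairs were 0.61 and -0.01 for Ifit2, 0.44 and 0.08 for Isg15, and 0.24 [-0.02 to 0.51] and -0.51 for Ifit3. In myeloid cells the anti-PD-1 effect on Isg15 with BTYNB minus that without was -2.04 (-0.73 and 1.31). The control myeloid cells held 16 UMIs of Isg15, and the -0.73 was smaller in size with cells of at least 5115 UMIs, as given above.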

How the results depend on the processing

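No paired analysis was possible because the labels give no replicate numbers and each group is 1 library. The number of members past 1.5-fold, which was 1, 2, 3 and 3 in tumor and 5, 4, 2 and 1 in myeloid cells (BTYNB and anti-PD-1 against the control, the combination against anti-PD-1 and against BTYNB), was most sensitive. With a common UMI floor it was 0 in tumor BTYNB against control, 2 in myeloid BTYNB against control and 5 in myeloid combination against anti-PD-1. With means over cells it was 2 and 1 in the first tumor comparisons, and 1 and 3 in myeloid combination against anti-PD-1 and against BTYNB. It was 1 in tumor anti-PD-1 against control with median-of-ratios scaling, with stricter rules and without Cd24a-high cells, and 0 in tumor BTYNB against control without them. Stricter rules gave 1 in myeloid combination against anti-PD-1, and removal of the 5% deepest cells 2 in myeloid combination against BTYNB. At 2-fold the counts were 0, 1, 1 and 1 in tumor and 2, 2, 1 and 0 in myeloid cells.

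The median in tumor anti-PD-1 against control was -0.10 with stricter rules and 0.085 without Cd24a-high cells, which also gave 0.00062 for the combination against anti-PD-1. The median in B cells was 0.019 with the UMI floor, and that of the Cd24a split was -1.74 with 10 or more against at most 1 UMI. Signs turned for Isg15 (0.08) and Oasl2 (0.09) in tumor anti-PD-1 against control without Cd24a-high cells. With the UMI floor they turned for Oasl2 in myeloid BTYNB against control (-0.048), myeloid combination against BTYNB (0.073) and B cells (-0.031), and for Rsad2 in T cells (0.13). The causes were not tested. Median-of-ratios scaling moved tumor ratios by -0.02, 0.07, -0.09 and 0.01 and T cell ratios by -0.16. Of 760 gene ratios 692 kept their value within the counting interval, 62 moved and 6 turned. Removal of the mitochondrial limit moved none of 118 values. Stricter rules left under 50 T and B cells in the combination, so no value was made there. Control and anti-PD-1 myeloid cells and combination lymphocytes are the sets most limited by depth.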
